A study of Arabidopsis thaliana with 11 samples.

Results

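The CLC family and the cation-chloride cotransporter CCC1 are 8 Arabidopsis thaliana genes that move chloride and nitrate across membranes inside the cell. They were chosen by locus name, as CLC-A to CLC-G and CCC1. All 8 were found among the 28718 loci of the authors' deposited table and had a probe on the array, and all 8 were well above background on all 11 arrays. They were among the 23457 genes tested, of 34290 genes on the array.

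Plant CLC proteins are either anion channels or exchangers that trade an anion for protons, and the proton gradient that drives the exchangers is made by vacuolar proton pumps. In guard cells, the epidermal cell pairs that set the width of the stomatal pore, vacuolar anions are stored when the pore opens and released when it closes. Under salinity the vacuole is also where chloride is placed away from the cytosol.

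Transcript levels in samples enriched for guard cells were read on 1-colour Agilent arrays. Every group was of the accession Columbia-0 and grew in soil. Pots stood in the solution for 2 h on each treatment day. The no salt group (4 samples) received tap water. The 1x salt group (3 samples) received 200 mM NaCl on days 13 and 14 only. The 3x salt group (4 samples) was stepped up: its NaCl dose was 75 mM for days 1 and 2, then 150 mM for days 7 and 8, then 200 mM for days 13 and 14. Harvest was on day 15 for all samples, 4 h into the light period, at an age of 6 to 7 weeks. The salt groups therefore differ in the number of treatment days (2 and 6) as well as in the doses. Since no label tells whether the replicates are separate plants or preparations, the p-values cover the spread among these samples alone, and that spread may be technical.

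Between 66.2% and 80.3% of the 43803 spots of an array were well above background. The 80.3% belongs to 1x salt 3, and the other arrays reached at most 71.8%. That array, 1 of 3 in its group, also had 442 outlier spots, against 9 to 38 on the others. All 9 guard cell markers, among them the channel KAT1, the anion channel SLAC1 and the factor FAMA, were above background on at least 1 array of every group. MYB61, also of that list, was so on only 1 of 4 no salt, 1 of 3 1x salt and 2 of 4 3x salt arrays. All 5 mesophyll and all 10 vascular markers were above background on every array. Some arrays of a group lay close together: a robust SD of the log2 differences came to 0.127 to 0.138 among no salt 2, 3 and 4, to 0.157 between 3x salt 1 and 2, and to 0.154 between 3x salt 3 and 4. It was 0.26 to 0.302 between these 3x salt pairs, and 0.316 and 0.361 between 1x salt 1 and the other two 1x salt arrays.

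Levels below are normalised log2 signals, the processed signal in log2 minus the 75th percentile of its array, so 0 is that percentile. Differences are between group means of these values, with the standard error (SE) and the adjusted p from limma over all genes tested, and a gene was called at an adjusted p below 0.05. The number of arrays limits the precision. The comparisons of 1x salt and of 3x salt with no salt share the no salt samples, and their values are given side by side. In bulk samples, fewer cells of a type and less RNA per cell cannot be told apart.

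In 1x salt, 3 of the 8 genes passed the test. CLC-A rose, and CLC-C and CLC-G fell. Over all genes tested, 16.9% passed in this comparison, 9.21% as higher and 7.68% as lower. In 3x salt, 4 of the 8 genes passed against no salt: CLC-F rose, and CLC-B, CLC-C and CLC-G fell. Here 51.4% of all genes tested passed, 27.9% as higher and 23.6% as lower, so 4 of 8 is near the background. Between 3x and 1x salt, 3 of the 8 genes passed, and CLC-A, CLC-B and CLC-G were all lower in 3x salt. The background was 38.8% of genes tested, 19.8% as higher and 19% as lower. That split of calls depended on the scaling: 51.1% of calls were higher in 3x salt, against 61.8% after quantile normalization. The median difference over all genes was 0.04, 0.04 and 0.01 in these comparisons.

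**Figure D1:**
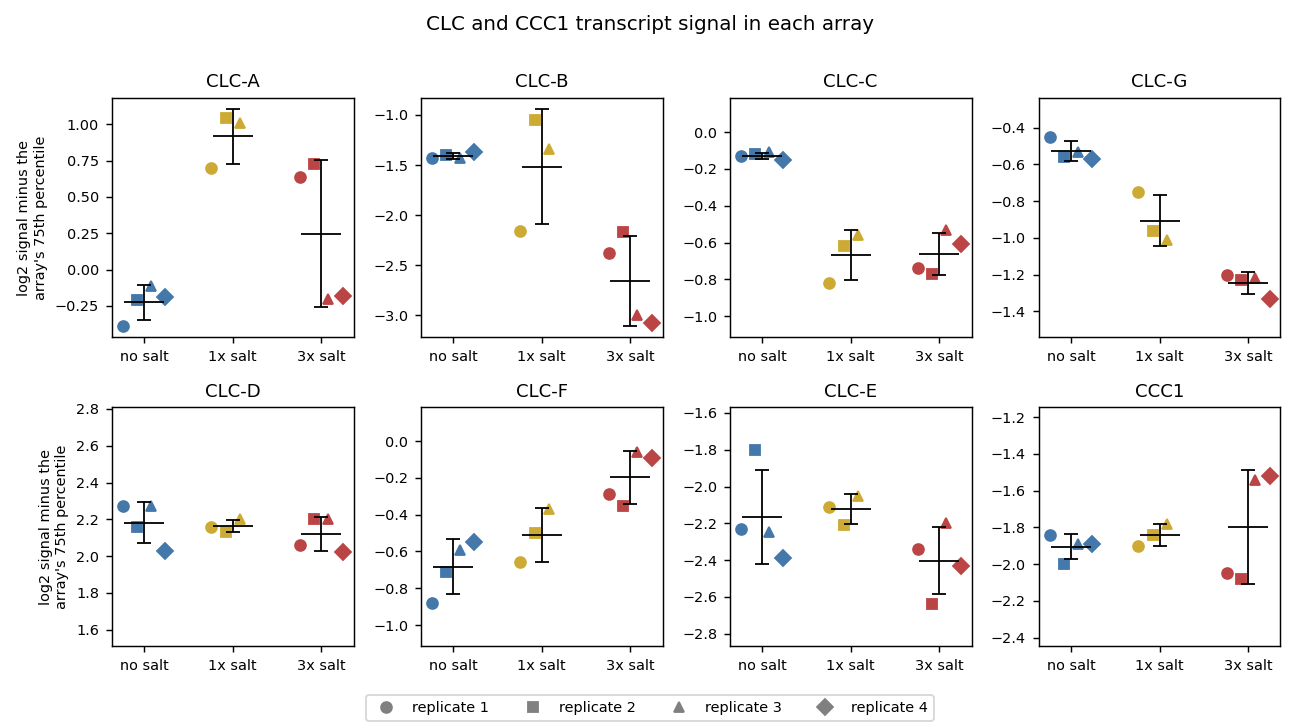
Normalised log2 signal (vertical axis, log2 signal minus the array's 75th percentile) of each gene by array, for no salt (n = 4), 1x salt (n = 3) and 3x salt (n = 4); symbols mark the replicate number, lines the group mean, bars the SD, and vertical scales differ between panels. CLC-A in 3x salt lies at 0.64 and 0.73 in replicates 1 and 2 and at -0.20 and -0.18 in replicates 3 and 4, and all 3x salt values of CLC-G lie below all values of the other groups.

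CLC-A (AT5G40890) is the tonoplast exchanger that loads nitrate into the vacuole in exchange for protons. In no salt its level was -0.39, -0.21, -0.11 and -0.19 in replicates 1 to 4. In 1x salt it was 0.70, 1.04 and 1.01. In 3x salt it was 0.64, 0.73, -0.20 and -0.18. All 1x salt arrays lay above all no salt arrays, while the 3x salt arrays fell into a high pair near 1x salt and a low pair inside the no salt range.

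CLC-A rose by 1.14 in 1x salt (SE 0.23, 95% interval 0.63 to 1.66, limma adjusted p = 0.00952), which is 2.21-fold. Of all genes tested, 5.79% differed by more in this comparison. On the slides that held both groups, the difference was 1.1, 1.25 and 1.13 (slides 1, 2 and 4). With the slide as a fixed block the difference was 1.06 and the call was lost (limma adjusted p = 0.0642, 3 residual degrees of freedom in place of 8).

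For 3x salt the CLC-A difference from no salt was 0.47 (SE 0.21, 95% interval 0 to 0.95, limma adjusted p = 0.0901), which did not pass. Within slides it was 1.03 on slide 1, with 3x salt 1, and 0.01 on slide 6, with 3x salt 4. Without 3x salt 3 the difference was 0.62 (limma adjusted p = 0.0337), and without 3x salt 4 it was 0.62 (limma adjusted p = 0.0391), so these arrays decide the call. CLC-A was lower in 3x than in 1x salt, with a difference of -0.67 (SE 0.23, limma adjusted p = 0.0436), with overlapping arrays. That call held in 2 of 11 fits with an array left out, with adjusted p from 0.0158 to 0.115, and on slide 1 the difference was -0.07. The fixed slide block ended it as well (-0.48, limma adjusted p = 0.296). Slides 3 and 5 held 1 array each, so in every such fit 3x salt 2 and 3x salt 3 add nothing to the differences.

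Vascular markers rose in 1x salt, where CLC-A rose. Of 10, 9 rose there and none fell (median difference 1.01), while 16.9% of all genes tested passed. In 3x salt 2 rose and 1 fell (median 0.23), with 51.4% of all genes tested passing. The marker that fell was XCP1 (-1.53, limma adjusted p = 0.000801). The summed linear level of the list, relative to the array's 75th percentile, was 58.9 to 75.7 in no salt, 101 to 126 in 1x salt and 82.4 to 89 in 3x salt. The locus with the second highest correlation with CLC-A over the 11 arrays (Pearson r = 0.991, among 19172 loci) was CESA7 (AT5G17420, IRX3 in the gene table), a cellulose synthase of secondary walls and a member of that marker list. CESA7 was at -4.00 to -3.69 in no salt, at -2.47, -1.78 and -1.83 in 1x salt, and at -2.73, -2.60, -3.76 and -3.79 in 3x salt replicates 1 to 4. It showed the same high and low pairs in 3x salt as CLC-A. The summed vascular level was 89 and 86 in 3x salt 1 and 2 and 83.8 and 82.4 in 3x salt 3 and 4. A linear sum is set by the brightest genes of the list and says little about a gene as dim as CESA7. CESA7 was found by its likeness to CLC-A, and the other vascular markers are not given by array here. The part of vascular cells in the CLC-A result was not tested. The others of the 3 most like loci were AT1G33790 (r = 0.994) and AT3G23750 (r = 0.989), and since arrays of 1 group share their treatment these correlations are descriptions.

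CLC-B (AT3G27170) is the closest relative of CLC-A and is also a nitrate-proton exchanger of the tonoplast. In no salt its level was -1.43, -1.40, -1.43 and -1.37. In 1x salt it was -2.16, -1.05 and -1.34. In 3x salt it was -2.38, -2.17, -3.0 and -3.08. The 3x salt arrays all lay below the other groups, though 3x salt 2 (-2.17) only barely below 1x salt 1 (-2.16). In the authors' deposited table the salt groups overlapped, with 3x salt 2 (8.69) above 1x salt 1 (8.59). The array 1x salt 1 stood apart from the other 1x salt arrays, which lay above the no salt arrays.

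CLC-B fell by 1.25 in 3x salt against no salt (SE 0.26, 95% interval -1.82 to -0.68, limma adjusted p = 0.00265), which is 2.37-fold. The difference was -0.95 on slide 1 and -1.70 on slide 6. With the slide as a fixed block it was -1.12 and missed the threshold (limma adjusted p = 0.0669), with only 3x salt 1 and 4 standing for 3x salt. In 1x salt the difference from no salt was -0.11 (SE 0.28, 95% interval -0.72 to 0.51, limma adjusted p = 0.838). It was -0.72 on slide 1, 0.35 on slide 2 and 0.09 on slide 4, and it ranged from -0.34 to 0.21 with an array left out. CLC-B was lower in 3x than in 1x salt, with a difference of -1.14 (SE 0.28, limma adjusted p = 0.00941), and on slide 1 that difference was -0.22. Under the slide block it was -0.93 and also missed the threshold (limma adjusted p = 0.176).

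Against no salt, CLC-A passed in 1x salt and CLC-B in 3x salt, and both were lower in 3x than in 1x salt. Their ratio within an array does not depend on the scaling between arrays. The log2 ratio of CLC-A to CLC-B signal was 1.04, 1.19, 1.32 and 1.19 in no salt. In 1x salt it was 2.86, 2.09 and 2.36, and in 3x salt 3.02, 2.90, 2.80 and 2.90. All salt-treated arrays lay above all no salt arrays, and the ratio in 3x salt had an SD of 0.09 (n = 4), against an SD of 0.50 for CLC-A and 0.45 for CLC-B alone. The ratio differed from no salt by 1.25 in 1x salt (exact permutation test, two-sided, p = 0.0571, the smallest that 3 against 4 samples allow). In 3x salt it differed by 1.72 (exact permutation p = 0.0286, the smallest that 4 against 4 allow). Between 3x and 1x salt the ratio differed by 0.47 (exact permutation p = 0.114). Over the 6 ratio tests run, the Benjamini-Hochberg adjusted values were 0.0857, 0.0857 and 0.137, so none passes 0.05. The absolute ratio carries the difference between the probes, and only its change between arrays can be read.

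**Figure D2:**
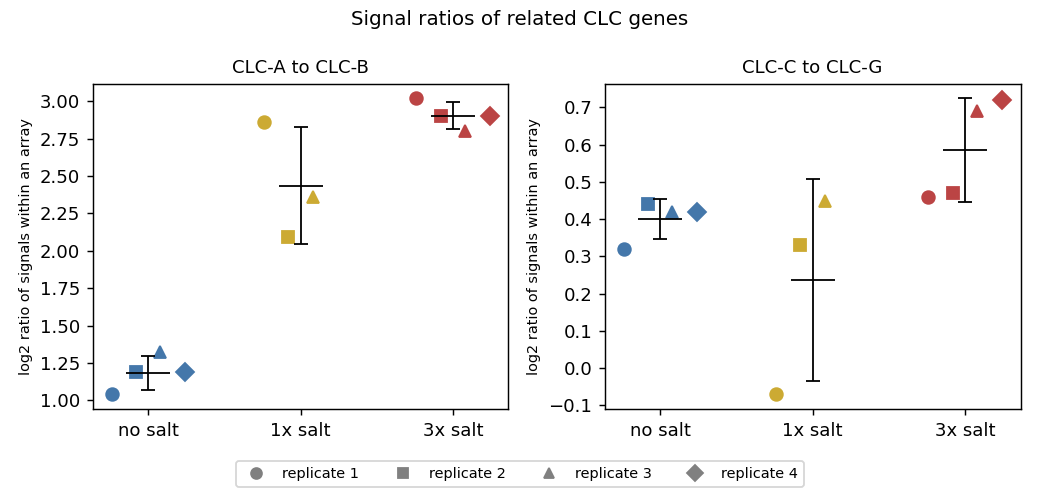
Log2 ratio of signals within each array (vertical axis) for CLC-A to CLC-B and for CLC-C to CLC-G, by array, for no salt (n = 4), 1x salt (n = 3) and 3x salt (n = 4); symbols mark the replicate number, lines the mean and bars the SD. The ratio of CLC-A to CLC-B runs from 1.04 to 1.32 in no salt and from 2.80 to 3.02 in 3x salt.

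CLC-C (AT5G49890) is a tonoplast transporter of chloride, known from guard cells and pollen, whose loss makes plants more sensitive to salt. In no salt its level was -0.13, -0.12, -0.11 and -0.15. In 1x salt it was -0.82, -0.62 and -0.56. In 3x salt it was -0.74, -0.77, -0.53 and -0.61. Both salt groups lay below no salt on every array and overlapped each other.

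CLC-C fell by 0.54 in 1x salt (SE 0.09, 95% interval -0.73 to -0.35, limma adjusted p = 0.00313) and by 0.54 in 3x salt (SE 0.08, limma adjusted p = 0.000407). The fold was 1.46 and 1.45. Within slides the difference from no salt was -0.70, -0.51 and -0.45 for 1x salt and -0.62 and -0.46 for 3x salt. With the slide as a fixed block both calls held (-0.54 and -0.51, limma adjusted p = 0.0456 and 0.0229). Both were lost when the arrays that lay close together were averaged, an alternative added after the data had been seen (-0.54 and -0.54, limma adjusted p = 0.109 and 0.0515). The 3x salt and 1x salt means differed by 0.00 (SE 0.09, 95% interval -0.19 to 0.20, limma adjusted p = 0.97). The loci most like CLC-C over the 11 arrays were AT5G53420 (r = 0.989), AT1G68600 (r = 0.983), which is ALMT5 of the aluminium-activated malate transporter family, and CT-BMY (r = 0.978), a chloroplast beta-amylase.

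CLC-G (AT5G33280), the closest relative of CLC-C, is a tonoplast chloride transporter that also contributes to salt tolerance. In no salt its level was -0.45, -0.56, -0.53 and -0.57. In 1x salt it was -0.75, -0.96 and -1.01. In 3x salt it was -1.20, -1.23, -1.22 and -1.33. No group overlapped another, in the order no salt, 1x salt and 3x salt from high to low. In the authors' deposited table the salt groups did overlap, with 3x salt 1 (9.94) above 1x salt 3 (9.84).

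CLC-G fell by 0.38 in 1x salt (SE 0.08, 95% interval -0.55 to -0.21, limma adjusted p = 0.0102). It fell by 0.72 in 3x salt (SE 0.07, 95% interval -0.88 to -0.56, limma adjusted p = 4.94e-05), which is 1.65-fold. It was lower in 3x than in 1x salt by a difference of -0.34 (SE 0.08, limma adjusted p = 0.00716). The slides that held 3x salt and no salt gave -0.76 and -0.76, and those that held 1x salt and no salt gave -0.31, -0.40 and -0.48. With the slide as a fixed block the 3x salt call held (-0.78, limma adjusted p = 0.0117). The 1x salt call did not (-0.39, limma adjusted p = 0.0605), nor did that between the salt groups (-0.39, limma adjusted p = 0.0694). The loci most like it were ASG5 (r = 0.993), AT5G56850 (r = 0.991) and MIPS2 (r = 0.988), a myo-inositol phosphate synthase.

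The ratio of CLC-C to CLC-G was 0.32 to 0.44 in no salt, -0.07, 0.33 and 0.45 in 1x salt, and 0.46, 0.47, 0.69 and 0.72 in 3x salt. It differed from no salt by -0.16 in 1x salt (exact permutation p = 0.514) and by 0.18 in 3x salt (exact permutation p = 0.0286). Between the salt groups it differed by 0.35 (exact permutation p = 0.0571). After adjustment over the 6 ratio tests these values were 0.514, 0.0857 and 0.0857.

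Guard cell and mesophyll markers were lower in 3x salt, where CLC-B, CLC-C and CLC-G were lower. Of 9 guard cell markers 5 passed as lower and none as higher against no salt (median difference -0.44). Of 5 mesophyll markers 4 passed as lower and none as higher (median -0.86). Over all genes tested, 51.4% passed there, 23.6% as lower. After quantile normalization the medians were -0.38 and -0.46, with 5 and 3 markers lower. In the authors' deposited table they were -0.47 and -0.84, with 6 and 5 lower. The summed linear level of the guard cell list was 46.8 to 58.9 in no salt, 63 to 77.7 in 1x salt and 34.2 to 45.8 in 3x salt. That of the mesophyll list was 552 to 768, 581 to 835 and 364 to 453. In 1x salt 1 guard cell marker passed as higher and none as lower, while CLC-C and CLC-G fell there too. Of the mesophyll markers none passed in 1x salt (0 also at an unadjusted p below 0.05 in limma). Against 1x salt, 6 guard cell markers, 4 mesophyll markers and 7 vascular markers passed as lower in 3x salt. None of these lists had a member that passed as higher. Over all genes tested, 38.8% passed in that comparison. After quantile normalization 6, 4 and 5 markers were lower, and the mesophyll median was -0.52 in place of -0.94. Of 5 pavement cell and trichome markers tested, 2 rose in 1x salt, and 1 rose and 2 fell in 3x salt. The summed level of the 6 on the array was 12.3 to 13.3, 16.6 to 17.3 and 14.8 to 17.6 in no salt, 1x salt and 3x salt, and GL1 was never above background. The part of these cell types in the results for the CLC genes was not tested.

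CLC-D and CLC-F act at the Golgi and the trans-Golgi network, where anion transport accompanies the acidification of the compartment. CLC-F (AT1G55620) had a level of -0.88, -0.71, -0.59 and -0.55 in no salt. It was -0.66, -0.50 and -0.37 in 1x salt. It was -0.29, -0.35, -0.06 and -0.09 in 3x salt. The 1x salt arrays overlapped no salt. The 3x salt arrays lay above all others, though 3x salt 2 (-0.35) only barely above 1x salt 3 (-0.37). With the other probe of the gene the salt groups overlapped, with 3x salt 2 (-0.41) below 1x salt 3 (-0.38). They also overlapped in the authors' deposited table, where 3x salt 1 and 2 (10.41 and 10.37) lay below 1x salt 3 (10.48).

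CLC-F rose by 0.49 in 3x salt (SE 0.11, 95% interval 0.25 to 0.72, limma adjusted p = 0.00362), which is 1.4-fold. Within slides the difference was 0.59 and 0.46. With the slide as a fixed block it was 0.53 (limma adjusted p = 0.0159). In 1x salt the difference was 0.17 (SE 0.11, 95% interval -0.08 to 0.43, limma adjusted p = 0.337), and it was 0.22 on each of the 3 slides that held both groups. For 3x against 1x salt it was 0.31 (SE 0.11, limma adjusted p = 0.0533), missing the threshold. It passed after quantile normalization (limma adjusted p = 0.0464) and with the other probe of the gene (0.29, limma adjusted p = 0.0489). That other probe gave 0.54 for 3x salt against no salt (limma adjusted p = 0.00115). The difference between the salt groups did not pass in the authors' deposited table (0.31, limma adjusted p = 0.155) or with the slide as a fixed block. It passed in 3 of 11 fits with an array left out, with limma adjusted p from 0.0406 to 0.173. The loci most like CLC-F were those of the translation initiation factor subunit EIF2 GAMMA (r = 0.985), the mitochondrial chaperone mtHsc70-1 (r = 0.98) and the ribosome-associated RACK1B_AT (r = 0.979).

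CLC-D (AT5G26240) had a level of 2.3, 2.2, 2.3 and 2.0 in no salt. It was 2.2, 2.1 and 2.2 in 1x salt. It was 2.1, 2.2, 2.2 and 2.0 in 3x salt. The groups overlapped throughout, and no comparison passed. The differences were -0.02 for 1x salt (95% interval -0.20 to 0.17, limma adjusted p = 0.913) and -0.06 for 3x salt (95% interval -0.23 to 0.11, limma adjusted p = 0.509) against no salt. Between 3x and 1x salt the difference was -0.05 (95% interval -0.23 to 0.14, limma adjusted p = 0.686). A second, dimmer probe of CLC-D gave -0.13, -0.16 and -0.02 and passed in none either. In 3x salt that probe formed pairs, at -0.40 and -0.25 in replicates 1 and 2 and at 0.13 and 0.18 in replicates 3 and 4. The authors' table follows that dimmer probe: the SD of table minus probe over the arrays was 0.07, against 0.28 for the brighter one. The SE of the differences was 0.18 to 0.2 in the authors' table, against 0.08 for the brighter probe.

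CLC-E (AT4G35440) is found in the thylakoid membrane of chloroplasts. Its level was -2.23, -1.80, -2.25 and -2.39 in no salt. It was -2.11, -2.21 and -2.05 in 1x salt. It was -2.34, -2.64, -2.20 and -2.43 in 3x salt. All groups overlapped, and no comparison passed. The difference from no salt was 0.04 in 1x salt (95% interval -0.28 to 0.36, limma adjusted p = 0.88) and -0.23 in 3x salt (95% interval -0.53 to 0.06, limma adjusted p = 0.168). Between the salt groups it was -0.28 (95% interval -0.60 to 0.04, limma adjusted p = 0.156).

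CCC1 (AT1G30450) is the cation-chloride cotransporter, which carries chloride together with sodium or potassium and works in the endomembrane system. Its level was -1.84, -2.0, -1.89 and -1.89 in no salt. It was -1.90, -1.84 and -1.78 in 1x salt. It was -2.05, -2.08, -1.54 and -1.52 in 3x salt. The 3x salt arrays again formed pairs, here with replicates 1 and 2 below and replicates 3 and 4 above every array of the other groups. The difference from no salt was 0.06 in 1x salt (95% interval -0.26 to 0.38, limma adjusted p = 0.813). In 3x salt it was 0.11 (95% interval -0.19 to 0.41, limma adjusted p = 0.525), with -0.21 on slide 1 and 0.38 on slide 6. Between 3x and 1x salt it was 0.04 (95% interval -0.28 to 0.37, limma adjusted p = 0.831). The loci most like it were AT3G59570 (r = 0.967), AT1G14670 (r = 0.932) and BAK1 (r = 0.92), a receptor kinase.

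**Figure D3:**
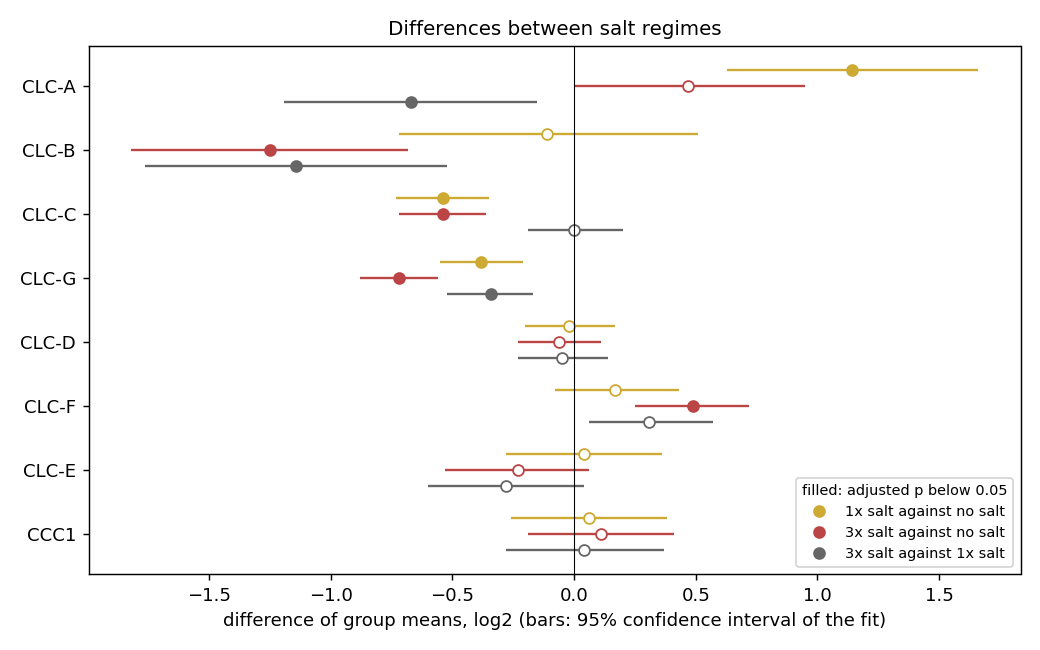
Difference of group means on the log2 scale (horizontal axis) for each gene in 1x salt against no salt, 3x salt against no salt and 3x salt against 1x salt; bars are 95% confidence intervals of the fit and filled points have an adjusted p below 0.05. CLC-C has the same difference (-0.54) in both salt groups, and the intervals of CLC-D stay within -0.23 and 0.17.

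The authors' deposited table gave the same direction as the scanner values for every call, with fewer calls. In the same limma fit on that table, 2, 4 and 2 of the 8 genes passed for 1x salt against no salt, 3x salt against no salt and 3x against 1x salt. The background there was 9.13%, 32.5% and 24.1% of its loci. CLC-A rose by 1.1 in 1x salt in the authors' deposited table (limma adjusted p = 0.00812) and CLC-B fell by 1.19 in 3x salt (limma adjusted p = 0.00291). CLC-G differed by -0.38 in 1x salt there and missed the threshold (limma adjusted p = 0.0827), as it did between the salt groups (-0.27, limma adjusted p = 0.148). In the authors' deposited table CLC-C fell by 0.50 in 1x salt (limma adjusted p = 0.0154) and fell by 0.52 in 3x salt (limma adjusted p = 0.00203), and CLC-F rose by 0.50 in 3x salt (limma adjusted p = 0.0135).

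**Figure D4:**
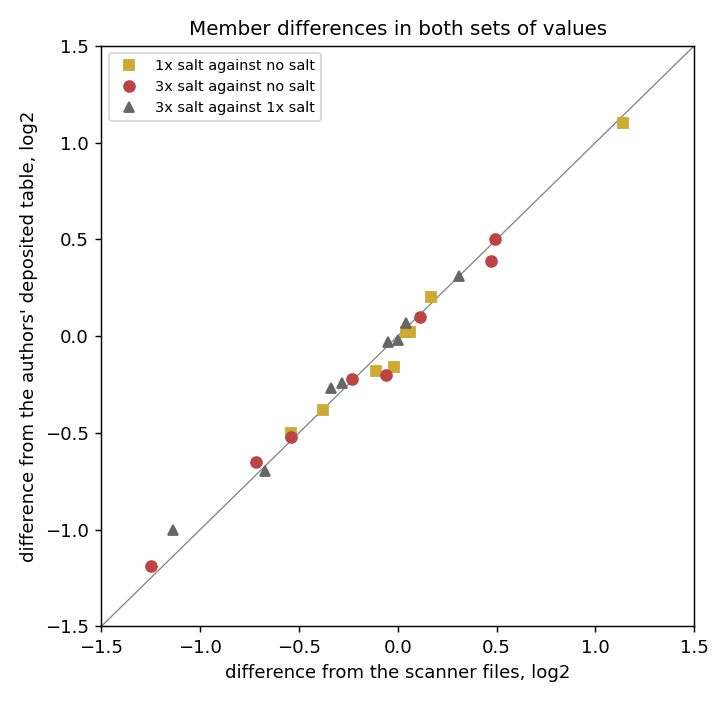
Log2 differences of the 8 genes from the authors' deposited table (vertical axis) against those from the scanner files (horizontal axis), for the 3 comparisons; the line marks equal values. The points lie near the line from CLC-B in 3x salt (-1.25 and -1.19) to CLC-A in 1x salt (1.14 and 1.1).

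Other genes of anion, nitrate and proton transport were taken from 4 lists. Their counts stand beside the shares over all genes tested. Those were 16.9% in 1x salt, 51.4% in 3x salt and 38.8% between the salt groups. Of 18 other anion channels and chloride carriers, 14 were tested: 2 rose and 3 fell in 1x salt (median difference -0.01), and 5 rose and 5 fell in 3x salt (median -0.13). The 3x salt split was 2 higher and 5 lower with the mean over a gene's probes, and 3 higher and 6 lower in the authors' deposited table, where DTX33 turned its sign. SLAH3 (AT5G24030), an anion channel for nitrate and chloride, rose by 2.65 in 1x salt (SE 0.51, limma adjusted p = 0.00762) and by 2.76 in 3x salt (SE 0.47, limma adjusted p = 0.000934). Its relative SLAH2 (AT4G27970), selective for nitrate, rose by 4.10 in 3x salt (SE 0.24, limma adjusted p = 3.8e-06). In no salt SLAH2 was well above background in 1 of 4 samples, and with another background correction (normexp, then quantile normalization) its 3x salt difference was 2.23 (limma adjusted p = 2.64e-06). ALMT5 (AT1G68600) fell by 1.34 in 1x salt (limma adjusted p = 0.00213) and fell by 1.53 in 3x salt (limma adjusted p = 0.00012). ALMT9 (AT3G18440), a vacuolar chloride channel of guard cells, rose by 0.44 in 3x salt (SE 0.07, limma adjusted p = 0.000474). For ALMT9 the authors' deposited table gave 0.13 (limma adjusted p = 0.642) and the mean over its probes 0.25 (limma adjusted p = 0.0723), and neither passed. ALMT13 (AT5G46600) fell by 0.63 in 3x salt (limma adjusted p = 0.000288). DTX35 (AT4G25640), a vacuolar chloride channel, fell by 0.62 in 1x salt (SE 0.08, limma adjusted p = 0.00105), and the difference was -1.12 in the authors' deposited table (limma adjusted p = 0.00254). In 3x salt the DTX35 difference from no salt was -0.18 (limma adjusted p = 0.0513), whereas the authors' deposited table gave -1.24 (limma adjusted p = 0.000164) and the mean over its probes -0.71 (limma adjusted p = 0.000102).

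Against 1x salt, 5 of these 14 were higher in 3x salt and 3 lower. The authors' deposited table turns the sign of 3 of them, among them DTX35 (0.43, limma adjusted p = 0.00198, against -0.12 in the table). Under both quantile settings all 8 kept their sign, while the mean over a gene's probes turned that of ALMT9.

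Of 17 nitrate transport and reduction genes, 16 were tested: 3 rose and 2 fell in 1x salt (median -0.07), and 5 rose and 5 fell in 3x salt (median -0.29). Both nitrate reductases fell in 1x salt, with differences of -1.47 for NIA2 (AT1G37130; SE 0.07, limma adjusted p = 6.05e-06) and -1.29 for NIA1 (AT1G77760; SE 0.08, limma adjusted p = 1.62e-05). In 3x salt NIA1 fell by 1.16 (limma adjusted p = 4.05e-06) while NIA2 rose by 0.42 (SE 0.07, limma adjusted p = 0.000647), and NIA2 was higher in 3x than in 1x salt by 1.89 (limma adjusted p = 1.23e-06). With the mean over its probes, the NIA2 difference in 3x salt against no salt was 0.32 and missed the threshold (limma adjusted p = 0.0549). NPF7.2 (AT4G21680), which takes nitrate out of the xylem sap, rose by 3.39 in 1x salt (SE 0.56, limma adjusted p = 0.00369) and by 4.62 in 3x salt (SE 0.51, limma adjusted p = 8.53e-05). NPF7.2 was above background on 3 of 4 no salt arrays, and under normexp its differences were 2.02 and 3.13 (limma adjusted p = 0.00445 and 3.46e-05). NPF6.3 (AT1G12110), the dual-affinity nitrate transporter, fell by 1.11 in 3x salt (limma adjusted p = 1.38e-05). NPF6.2 (AT2G26690) rose by 1.36 in 1x salt (limma adjusted p = 0.00139) and was lower in 3x than in 1x salt, with a difference of -2.04 (limma adjusted p = 7.62e-05). Of the 16, 3 were higher and 5 lower in 3x than in 1x salt.

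Of 29 genes for the vacuolar proton ATPase and the vacuolar pyrophosphatase, 28 were tested. None passed in 1x salt by limma (2 at an unadjusted p below 0.05, and none after quantile normalization or in the authors' deposited table), with differences from -0.15 to 0.39. In 3x salt 6 rose and 4 fell (median 0.04), where 51.4% of all genes tested passed. VHA-E3 (AT1G64200), an isoform of subunit E, fell by 2.20 (SE 0.29, limma adjusted p = 0.000221). Its sister isoform VHA-E1 (AT4G11150) rose by 0.45 (limma adjusted p = 0.000711), as did VHA-c2 (AT1G19910) by 0.44 (limma adjusted p = 0.000463) and VHA-c3 (AT4G38920) by 0.39 (limma adjusted p = 0.00173), both membrane subunits of the proton ring. Against 1x salt, 3 were higher and 1 was lower in 3x salt.

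Of 9 vacuolar and endosomal cation/proton exchangers, 1 fell in 1x salt and 5 fell in 3x salt, with none passing as higher (median -0.13 and -0.43). In the authors' deposited table none passed in 1x salt, and 5 were lower and 1 higher in 3x salt, the latter NHX1 (0.33, limma adjusted p = 0.0387, against 0.03 and 0.694 from the scanner files). NHX5 (AT1G54370), of the endosomes, fell by 0.31 in 1x salt (limma adjusted p = 0.0212) and fell by 0.43 in 3x salt (limma adjusted p = 0.000661). Its 1x salt difference was -0.26 both in the authors' deposited table (limma adjusted p = 0.156) and under normexp (limma adjusted p = 0.0976), and neither passed. NHX2 (AT3G05030), of the tonoplast, fell by 0.73 in 3x salt (limma adjusted p = 0.000776), NHX4 (AT3G06370) fell by 0.98 (limma adjusted p = 0.0123) and KEA6 (AT5G11800) fell by 0.56 (limma adjusted p = 0.00574). In 3x against 1x salt, 1 was higher and 2 were lower, and the higher one was NHX1 (AT5G27150), with a difference of 0.26 (limma adjusted p = 0.0168).

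**Figure D5:**
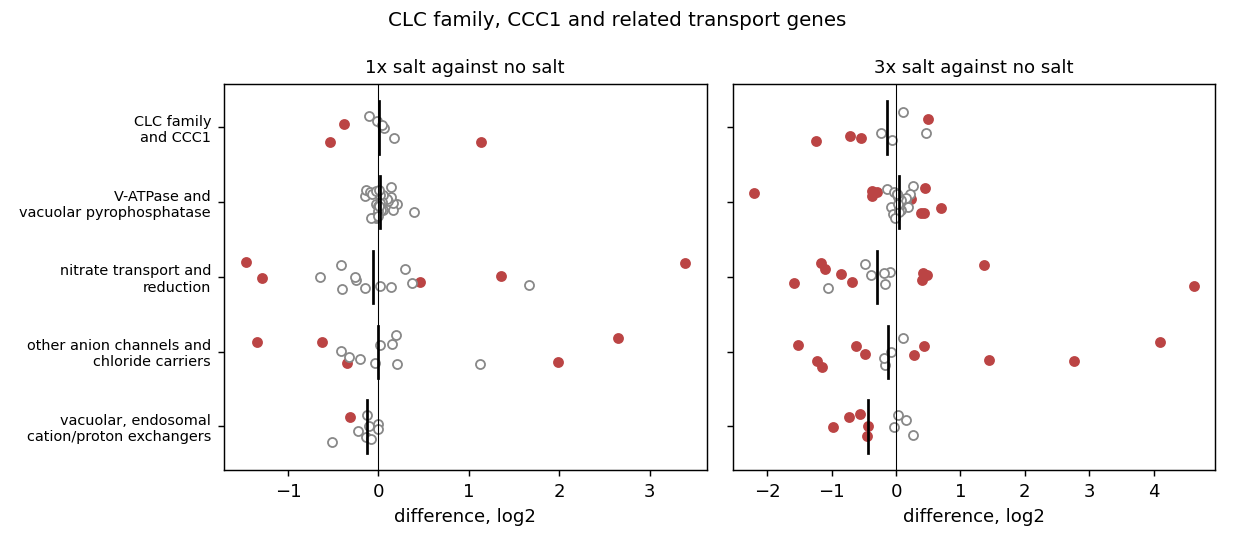
Log2 difference from no salt (horizontal axis) of each tested gene of the CLC family and CCC1 and of 4 related lists, for 1x salt (left) and 3x salt (right); filled points have an adjusted p below 0.05 and lines mark the median. The 4 lists have medians from -0.13 to 0.02 in 1x salt and from -0.43 to 0.04 in 3x salt.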

How the data were processed

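Per the file headers, Agilent Feature Extraction 11.5.1.1 made the scanner files, which hold a background-subtracted processed intensity for each spot. The authors' deposited table holds 1 normalised log2 value per locus, the scale being judged against the scanner values. How the authors corrected, normalised and centred those deposited log2 values is not stated in the sources used here. Its column medians were 8.29 to 8.34.

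Processed intensities were taken as log2 minus the 75th percentile of each array, outlier spots were left out, repeat spots averaged, and the brightest probe stood for a gene. Genes well above background on at least 3 arrays were tested. Probes were paired with loci through a RefSeq gene table by locus or accession (34348 of 43603 probes, 25410 loci); CLC-G carries its name there as a synonym only. A model of group alone was fitted to the 11 arrays together (limma 3.58.1, R 4.3.3). P-values were adjusted by Benjamini and Hochberg's method, separately for every comparison, and called below 0.05. The fit was run on simulated data with noise drawn independently for each array. That run leaves out the closeness of some arrays, so it cannot show how the fit performs with such arrays. Ratios were compared by exact permutation (scipy 1.17.1).

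Slides were numbered from the headers: slide 1 held replicate 1 of each group, slide 2 no salt 2 and 1x salt 2, slide 3 3x salt 2, slide 4 no salt 3 and 1x salt 3, slide 5 3x salt 3, and slide 6 no salt 4 and 3x salt 4. The files hold no mean signal, so the normexp alternative used the median signal and local background, with an offset of 50.

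The members, lists and tests were chosen with earlier results of these data known. Named genes from a list are those with the smallest adjusted p below 0.05, at most 4 per comparison; the text gives part of them, with their values in other comparisons.

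Alternatives were quantile normalization, normexp, other filters, the mean of probes, the other probe, the deposited table, slide and replicate blocks, leaving out each array, fits of 2 groups only, and averaging close arrays. The last setting and the ratios were chosen after the data were seen. No sequence or coordinate is given, since no genome of the files' build was used here. Figures were drawn with matplotlib 3.10.9.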

Additional observations from a re-analysis of the deposited data

How the results depend on the processing

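No difference of a CLC gene or CCC1 that passed the test turned direction in any of the 23 alternatives. Of 558 recomputed differences, 508 stayed on their side of the threshold, 40 lost the call and 10 gained it. Uncalled differences changed sign 18 times. With the slide as a fixed block (3 residual degrees of freedom), the genes of the family that passed were 1, 3 and 0 for 1x salt against no salt, 3x salt against no salt and 3x against 1x salt (2 at an unadjusted p below 0.05 for the last), against 3, 4 and 3. Over all genes 1037, 7972 and 2783 passed in place of 3962, 12068 and 9102.

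With close arrays averaged to 1 sample, 0, 1 and 0 of the family passed (3, 4 and 4 at an unadjusted p below 0.05 in limma), and over all genes 102, 3590 and 2834. The one that passed was CLC-G in 3x salt (-0.75, limma adjusted p = 0.025), while CLC-A in 1x salt was at 1.20 (limma adjusted p = 0.104), CLC-C at -0.54 in both salt groups (0.109 and 0.0515), CLC-B in 3x salt at -1.24 (0.0895) and CLC-F at 0.55 (0.0732). With 1x salt 2 and 3 averaged too, 0, 1 and 0 passed (3, 4 and 1 unadjusted), and over all genes 2, 2218 and 511. The plain SD first planned to find close arrays was 0.3 or more for every pair and averaged none, so the robust SD was used. In these averaged fits fewer samples enter.

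With the values deposited by the authors, 2622 genes passed for 1x salt against no salt. Leaving out 1 array gave 2277 to 5580 genes in that comparison on the scanner values, and the arrays that lowered the count by over 1.5 times were no salt 3 (2521), 1x salt 2 (2565) and 1x salt 3 (2277). With the replicate block, 3, 4 and 3 of the family and 3269, 12613 and 9083 genes passed. It ended the call of CLC-A between 3x and 1x salt (-0.61, limma adjusted p = 0.096) and added CLC-F (0.27, limma adjusted p = 0.0229). The labels do not pair samples by number, although same-numbered 1x and no salt samples shared a slide, as did replicate 1 of all groups and replicate 4 of no salt and 3x salt. The correlation over genes of same-numbered deviations from the group means was 0.09 to 0.15 for 1x and no salt, 0.01 to 0.23 for 3x and no salt, and -0.12 to 0.30 for 3x and 1x salt. CLC-G in 1x salt and between the salt groups missed the threshold under normexp (limma adjusted p = 0.0532 and 0.103). The cause was not tested. The number of arrays and the lack of stated independence limit every call.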

Other observations

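Over the 11 arrays CLC-F and CLC-G had the lowest correlation of the 28 pairs of genes (Pearson r = -0.91), and CLC-C and CLC-G the highest (r = 0.78). CLC-A and CLC-B correlated at 0.18. These values describe arrays that share treatment groups.

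The locus most like CLC-B was UMAMIT42 (r = 0.98), followed by BGAL2 (r = 0.97) and AT3G61920 (r = 0.965). The locus most like CLC-D was AT3G13226 (r = 0.884), and that most like CLC-E was LAG1 (r = 0.947). None of the 16 sets of 4 values (8 genes in no salt and in 3x salt) held a single array far from the others by Dixon's test at its 95% critical value. That test looks for a single array, so it cannot show the pairs seen in 3x salt. The 1x salt group was not put to it.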
